A study of Mus musculus with 16 samples.

Results

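The expression of 9 genes that hold lymphocytes at rest was followed across the sorted thymocyte libraries: Foxo1, Foxo3, Foxp1, Klf2, Tob1, Btg1, Btg2, Slfn2 and Tsc1. They were chosen by symbol, as 9 of the 22114 protein-coding genes listed in both count tables of the series. Each symbol has 1 row in each table, and all 9 passed the filter on low counts in both experiments. The study used RNA-seq to ask what sets DN3 thymocytes that divide little apart, and what the loss of p21 does to them. DN3 cells are T-cell progenitors without CD4 or CD8 that carry CD25, and in mice with an Lmo2 transgene they act as pre-leukemic stem cells.

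The first experiment has 3 GFP_HI and 3 GFP_LO libraries, sorted from one kind of mouse that carried both the CD2-Lmo2 transgene and a doxycycline-inducible H2B-GFP allele. These mice had 6 weeks of doxycycline and 2 weeks of chase, so that GFP_HI cells are those that diluted the labelled histone least. The second experiment has total DN3 cells without a GFP sort: 3 libraries labelled wildtype (WT here), 2 labelled P21KO (germline loss of Cdkn1a, which encodes p21), 2 LMO2Tg and 2 LMO2TgP21KO (LMO2Tg_P21KO in the plots). All mice were C57BL/6 by their labels (lines crossed back to C57BL/6J for 10 generations, by the methods). RNA was prepared from pools of 3 to 5 mice, by the methods. The genotype mice were 6 weeks old. For expression RNA the methods give this same age throughout, whereas a supplementary figure legend gives an older age for the GFP mice. The age of the GFP mice is therefore uncertain. In LMO2Tg and LMO2TgP21KO mice, as in both GFP groups, the transgene is driven by CD2 sequences and so is active in T-lineage cells. Nothing in the labels ties a genotype library to a separate cohort, so p-values measure the spread between these libraries. In bulk RNA, fewer cells with a transcript and less of it per cell cannot be told apart.

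Quiescence in lymphocytes is an active state. FOXO factors, which AKT keeps out of the nucleus in stimulated cells, switch on genes of resting T cells, KLF2 among them, and KLF2 in turn drives the sphingosine receptor gene S1pr1. TOB and BTG proteins slow division and tie messenger RNAs to the CCR4-NOT deadenylase, SLFN2 is needed for T cells to stay at rest, and TSC1 with TSC2 keeps the growth kinase complex mTORC1 low.

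Total counts were 26861394 to 31106213 per GFP library and 13864936 to 16837667 per genotype library, so that 3 counts correspond to at most 0.112 and 0.216 CPM (counts scaled by library size, here with TMM factors). The transgene check held: Lmo2 lay between 0.0636 and 0.306 CPM in WT and P21KO and between 41.4 and 107 CPM in LMO2Tg and LMO2TgP21KO libraries. Cdkn1a was 36.5, 37.5 and 49 CPM in WT, 14.3 and 17.7 in P21KO, 32.8 and 26.3 in LMO2Tg and 4.35 and 3.5 in LMO2TgP21KO, lower in every library labelled for the deletion but not absent. All 16 DN3 markers passed the filter, and their summed level was 9860 to 13900 CPM over all libraries, against 24 to 115 CPM for the 12 B-lineage markers counted. One library stood apart. GFP_HI replicate 3 had 285 CPM of Lmo2, where the other GFP libraries had 29.5 to 53.8, and 6.55 CPM of Cdkn1a, where the other GFP_HI libraries had 35.8 and 29.9. The second principal component (27% of the variance) separated it from them. The GFP difference of each regulator, and of each list described for the GFP groups, is therefore given with and without it.

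Promoter sequences are shown for the 3 regulators that were highest against WT in LMO2Tg cells (Klf2, Btg1, Tob1) and for the 1 that was lower (Slfn2). Each line gives the 250 bases before the RefSeq start, 5′ to 3′ on the gene's strand, on GRCm38.p6. Capitals mark matches on either strand to 5 motifs. The GC box was searched as GGGCGG and the CCAAT box by that name, the TATA box was searched as TATAAA, the core bound by FOXO and FOXP factors as GTAAACA, and an E-box of E proteins as CAGGTG. The cAMP response element with its letters TGACGTCA and the GATA site with its letters AGATAA were searched too and have no match in these lines. Matches of different motifs did not overlap in the lines shown.
Klf2 (chr8:72318812-72319061, plus strand): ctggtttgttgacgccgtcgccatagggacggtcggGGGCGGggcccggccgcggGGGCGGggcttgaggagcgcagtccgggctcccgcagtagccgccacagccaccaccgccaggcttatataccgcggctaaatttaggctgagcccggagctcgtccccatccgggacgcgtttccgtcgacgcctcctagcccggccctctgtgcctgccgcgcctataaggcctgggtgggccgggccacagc
Btg1 (chr10:96616751-96617000, plus strand): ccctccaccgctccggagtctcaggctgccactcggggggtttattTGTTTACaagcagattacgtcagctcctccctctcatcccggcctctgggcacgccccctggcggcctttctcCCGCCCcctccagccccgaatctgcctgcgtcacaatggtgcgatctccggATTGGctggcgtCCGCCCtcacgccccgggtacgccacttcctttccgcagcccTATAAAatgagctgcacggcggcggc
Tob1 (chr11:94211204-94211453, plus strand): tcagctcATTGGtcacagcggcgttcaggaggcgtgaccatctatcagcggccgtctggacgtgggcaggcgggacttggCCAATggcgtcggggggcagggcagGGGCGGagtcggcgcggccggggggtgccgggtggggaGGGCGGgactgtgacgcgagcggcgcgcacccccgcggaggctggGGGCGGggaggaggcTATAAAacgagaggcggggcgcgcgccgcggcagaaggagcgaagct
Slfn2 (chr11:83064862-83065111, plus strand): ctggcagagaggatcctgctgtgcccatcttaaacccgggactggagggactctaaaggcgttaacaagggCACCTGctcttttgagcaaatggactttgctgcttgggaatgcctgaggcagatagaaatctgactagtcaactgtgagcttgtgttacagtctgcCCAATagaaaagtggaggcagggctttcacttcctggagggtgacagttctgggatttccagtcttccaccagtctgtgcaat

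All 9 genes matched RefSeq, with 11 promoters in all because Foxp1 has 3. GGGCGG was found for 7 of the 9 genes, in a table where 32.7% of 32851 windows of this length hold it, and Slfn2 and Tsc1 lacked it. The Klf2 window is 71.2% G or C and the Slfn2 window 50.8%, beside a median of 52.4% over all windows. The CCAAT box (33.8% of windows) was found for 6 genes, and the TATA box (12.4%) for Btg1 and Tob1. The FOXO core (3.17%) was found for Btg1, the cAMP response element (1.55%) for Btg2, the GATA site (9.99%) for Tsc1 and the E-box (17.2%) for Slfn2 and Foxp1. Klf2, Btg1 and Tob1 thus all hold the GC box letters, Btg1 and Tob1 also hold the CCAAT and TATA boxes, and Klf2 holds neither of these. A match is a description of the letters only.

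GFP_HI was compared with GFP_LO to ask which regulators differ between label-retaining and diluted cells of mice with the same genotype and labelling. Tob1, Btg1 and Btg2, the antiproliferative genes, were higher in GFP_HI cells, and Slfn2 and Tsc1 were lower. These 5 of 9 genes passed edgeR's quasi-likelihood test at an adjusted p under 0.05, where 14.9% of the 11581 genes tested did (5.37% higher and 9.49% lower). Their groups did not overlap, which held for 41.3% of all genes. Without GFP_HI replicate 3 the count was 8 of 9, beside 41.3% of 11745 genes, with Foxo1 and Klf2 added to the higher genes and Foxp1 to the lower. The median absolute log2 fold change was 0.53 over the 9 genes and 0.21 over all genes tested. B-lineage markers were higher in GFP_HI for 5 of 9 tested (7 of 10 without GFP_HI replicate 3). Of these, Cd79a, Ms4a1, Pax5 and Cd22 were at most 0.244 CPM in each GFP_LO library. They passed the filter only through GFP_HI, so the share called was partly set by the filter. The 12 B-lineage markers counted summed to 43.9 to 115 CPM in GFP_HI, with at most 1 at 0 in a library. In GFP_LO they summed to 25.9 to 29.5 CPM, with 1 to 2 at 0, and Cd74 reached 57.4 CPM in GFP_HI replicate 2. The 25 immediate early and tissue handling genes summed to 1680 to 2070 CPM in GFP_HI and 1200 to 1440 CPM in GFP_LO, without overlap. The chaperone gene Hspa8 was the largest part of each sum, at 809, 763 and 541 CPM in GFP_HI and 446, 400 and 404 in GFP_LO. The separation of the sums therefore does not describe the whole list. Of the 23 tested 5 were higher and 2 lower (Hspa1a -1.83 and Hspa1b -1.54), with a median log2 fold change of 0.72. Without GFP_HI replicate 3 the counts were 10 and 5, with a median of 0.3. The part of these markers and genes in the results below was not tested.

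**Figure D1:**
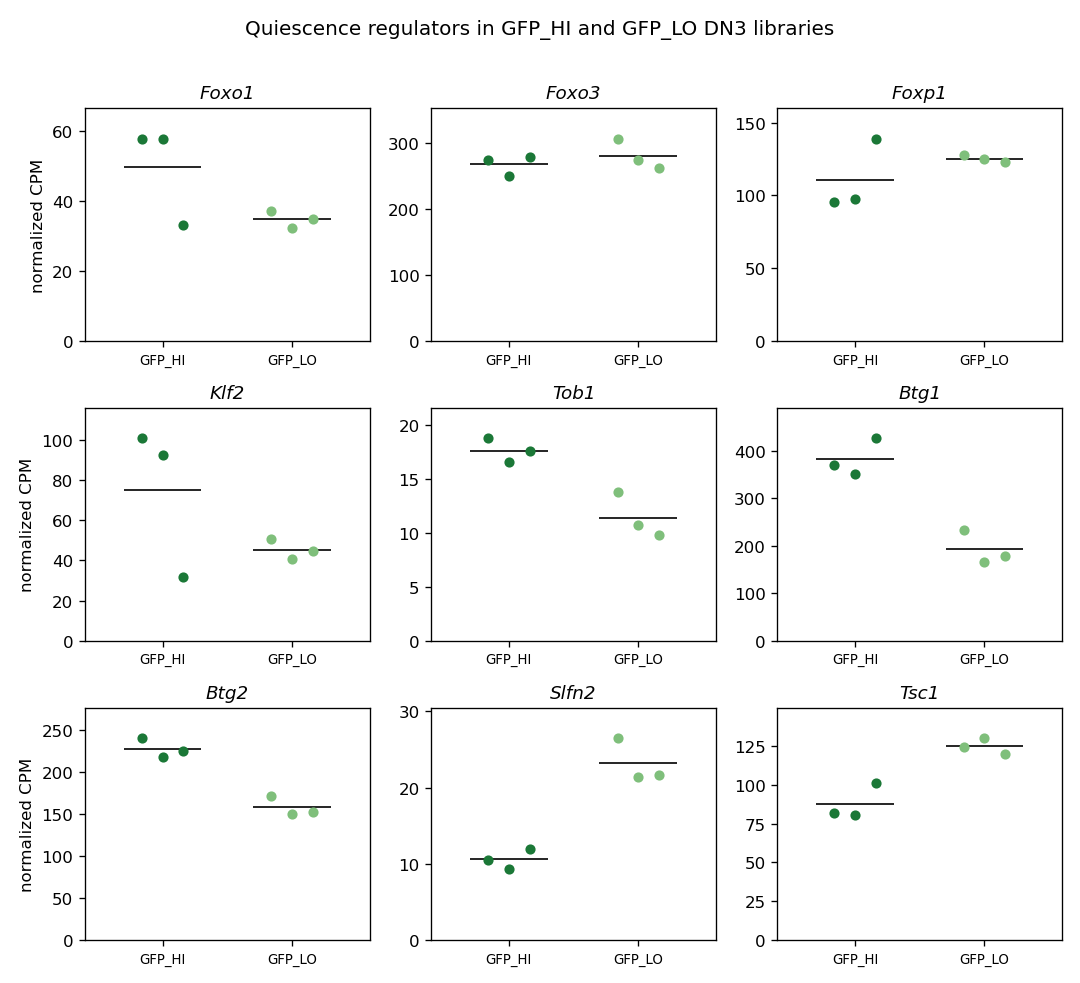
Normalized CPM of each regulator (vertical axes from 0) in the 3 GFP_HI and 3 GFP_LO libraries, in replicate order from left to right, with lines at the means. Btg1 lies between 351 and 426 CPM in GFP_HI and between 165 and 234 in GFP_LO, whereas for Klf2 the third GFP_HI library, at 31.8 CPM, lies below all GFP_LO libraries.

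Btg1 (ENSMUSG00000036478, chr10:96617006-96622809), an antiproliferative adaptor gene, was 369, 351 and 426 CPM in GFP_HI and 234, 165 and 179 CPM in GFP_LO. Every GFP_HI library was above every GFP_LO library. The log2 fold change was 0.99 ± 0.15 (SE, n = 3 and 3), or 1.99-fold, with an adjusted p of 0.012 in edgeR's fit. Without GFP_HI replicate 3 it was 0.91 ± 0.14 (adjusted p = 0.0028, edgeR). The call was lost in 2 of 12 alternatives, without GFP_LO replicate 2 or without GFP_LO replicate 3 (highest adjusted p 0.067, edgeR).

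Btg2 (ENSMUSG00000020423, chr1:134075170-134079120), its closest relative here and a p53 target, was 241, 218 and 226 CPM in GFP_HI against 172, 150 and 153 in GFP_LO. The groups did not overlap, and the difference was 0.53 ± 0.08 on the log2 scale (adjusted p = 0.01, edgeR), and 0.54 ± 0.08 without GFP_HI replicate 3. The Btg2 call was lost in 2 of 12 alternatives, those without GFP_LO replicate 2 or 3 (highest adjusted p 0.069, edgeR). Tob1 (ENSMUSG00000037573, chr11:94211454-94215495), a negative regulator of T-cell activation, was low in both groups, at 18.8, 16.6 and 17.6 CPM in GFP_HI and 13.8, 10.7 and 9.79 in GFP_LO. The groups were again apart, but the call was close to the threshold (0.63 ± 0.16, adjusted p = 0.046, edgeR), and it was lost in 7 of 12 alternatives, where the adjusted p ranged from 0.0042 to 0.18. Without GFP_HI replicate 3 it was 0.64 ± 0.16 (adjusted p = 0.017, edgeR).

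Slfn2 (ENSMUSG00000072620, chr11:83065112-83070678) went the other way. It was 10.5, 9.28 and 12 CPM in GFP_HI and 26.5, 21.4 and 21.6 CPM in GFP_LO, so that the highest GFP_HI library was well below the lowest GFP_LO library. On the log2 scale it was -1.13 ± 0.15 (2.18-fold lower, adjusted p = 0.0081, edgeR), and the call held in each of the 12 alternatives (highest adjusted p 0.048), with -1.22 ± 0.13 without GFP_HI replicate 3. Slfn2 has close paralogs beside it on the chromosome, so its count is uncertain where reads could be shared.

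Tsc1 (ENSMUSG00000026812, chr2:28641228-28691167) was 81.6, 80.8 and 101 CPM in GFP_HI and 124, 130 and 120 in GFP_LO. All GFP_HI libraries were below all GFP_LO libraries, and the difference was -0.51 ± 0.1 on the log2 scale (adjusted p = 0.025, edgeR). Without GFP_HI replicate 3 it was -0.61 ± 0.05. The call was lost in 6 of 12 alternatives. Tsc1 lies on chromosome 2, whose 923 tested genes had a median log2 fold change of -0.18. Relative to that median Tsc1 was lower by 0.33, and 19.4% of the chromosome's genes lay below it. Without GFP_LO replicate 2 or without GFP_LO replicate 3, Slfn2 was the 1 regulator that passed.

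Of the transcription factor genes, Klf2, Foxo1 and Foxp1 depended on GFP_HI replicate 3. Klf2 (ENSMUSG00000055148, chr8:72319033-72321656) was 101, 92.6 and 31.8 CPM in GFP_HI and 50.5, 40.6 and 44.6 in GFP_LO. The first pair of GFP_HI libraries lay at about the same level above all GFP_LO libraries and the last lay below them. Over 6 libraries the difference was 0.73 ± 0.41 (adjusted p = 0.26), and over the other 5 it was 1.1 ± 0.1 (adjusted p = 0.00034, edgeR).

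Foxo1 (ENSMUSG00000044167, chr3:52268336-52353221) was also split within GFP_HI, with 57.9, 57.8 and 33.3 CPM in GFP_HI and 37.3, 32.4 and 34.8 in GFP_LO. Its difference was 0.51 ± 0.22 with the third library (adjusted p = 0.16) and 0.74 ± 0.07 without it (adjusted p = 0.00059, edgeR). An antisense gene, Gm20402, overlaps Foxo1 exons, so the Foxo1 count is uncertain where reads are not split by strand. Foxp1 (ENSMUSG00000030067, chr6:98925338-99522721) ran opposite, at 95.4, 97.8 and 139 CPM in GFP_HI and 128, 125 and 123 in GFP_LO. The third GFP_HI library was above all others and the remaining pair below, which gave -0.18 ± 0.15 with it (adjusted p = 0.45) and -0.37 ± 0.05 without it (adjusted p = 0.0016, edgeR). Foxp1 exons overlap Gm20696, a protein-coding gene on the same strand, so its count is uncertain.

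Foxo3 (ENSMUSG00000048756, chr10:42181841-42276755) was 274, 249 and 279 CPM in GFP_HI and 306, 273 and 262 in GFP_LO, with overlapping groups. The difference was -0.07, with a 95% interval from -0.27 to 0.13 that leaves room for small changes only. Without GFP_HI replicate 3 it was -0.1.

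Partners of these genes are set beside the share of all genes that passed. This share was 14.9% of 11581 genes over 6 libraries and 41.3% of 11745 without GFP_HI replicate 3. Of 20 tested TSC-mTORC1 pathway genes, 3 were lower in GFP_HI, led by Eif4ebp1 (a translation repressor that mTORC1 inactivates) at -1.58 ± 0.15, with Rptor at -0.31 and Tsc2 at -0.24 on the log2 scale. The median over this list was 0.05, beside 0.02 over all genes, and without GFP_HI replicate 3 the counts were 4 higher and 3 lower. Of 17 FOXO1 and KLF2 target genes, Sesn3 was higher (0.89) and Rictor (-0.62) and Ccng2 (-0.51) were lower, and without GFP_HI replicate 3 the counts were 5 higher, with S1pr1 at 2.9, and 5 lower, with Il7r at -0.86. S1pr1 was 43.9, 45.1 and 2.98 CPM in GFP_HI and 10.2, 4.92 and 3.03 in GFP_LO, so it was split among GFP_HI libraries as Klf2 was. This split was not particular to them. Sgk1 was 33.7, 35.3 and 2.64 CPM in GFP_HI, and the 16 p53 target genes summed to 2170, 2060 and 1000 CPM. Of 15 p53 targets tested 1 was higher and 1 lower, and 12 and 1 without GFP_HI replicate 3.

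Other relatives moved one by one. Of 9 KLF relatives tested, Klf7 (-0.86) and Klf11 (-0.93) were lower in GFP_HI, and Klf9 was 0.682 to 4.58 CPM in GFP_HI but at 3 counts or fewer in each GFP_LO library. The KLF counts were 1 higher (Klf9, which passed the filter only through GFP_HI) and 2 lower, and 2 and 4 without GFP_HI replicate 3. Pabpc1, which binds poly-A tails, was lower (-0.61) among 13 genes of the CCR4-NOT list, Inpp5d was higher (0.45) among 12 kinases and phosphatases upstream of FOXO, and Cblb was lower (-0.45) among 17 further quiescence genes. Without GFP_HI replicate 3 the counts were 1 higher and 1 lower for the CCR4-NOT list, 4 and 1 for the upstream list and 3 and 2 for the further quiescence genes. The 23 proliferation genes had a median log2 fold change of -0.28, and their summed level overlapped between the groups, at 4680 to 7090 CPM in GFP_HI and 6180 to 8300 in GFP_LO. None of the 23 passed over 6 libraries, and 2 were lower without GFP_HI replicate 3, with a median of -0.1.

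In the genotype experiment, LMO2Tg was compared with WT to ask what the transgene alone does to total DN3 cells. Klf2, Btg1 and Tob1 were 4.61-fold to 10.1-fold higher in LMO2Tg cells, Foxo3, Tsc1 and Foxp1 were slightly higher, and Slfn2 was lower. Thus 7 of 9 regulators passed, where 36.6% of 11840 genes tested did (19.7% higher and 16.9% lower), and 3 of the 7 differed by more than 2-fold. The median absolute log2 fold change was 0.61 for the 9 genes and 0.26 for all genes. Other lists differed too. Of 16 DN3 markers 9 were lower and 3 higher (Rag2 -2.33, Ptcra -1.9, Cd3g -1.56). The 25 immediate early and tissue handling genes summed to 5370 and 7260 CPM in LMO2Tg and 2500 to 4260 CPM in WT, with 15 of 25 called higher. The 14 myeloid markers summed to 33 to 39.1 CPM in LMO2Tg, with 2 to 4 at 0, and to 21.7 to 32.5 CPM in WT, with 1 to 6 at 0. The part of these in the results for the regulators was not tested.

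**Figure D2:**
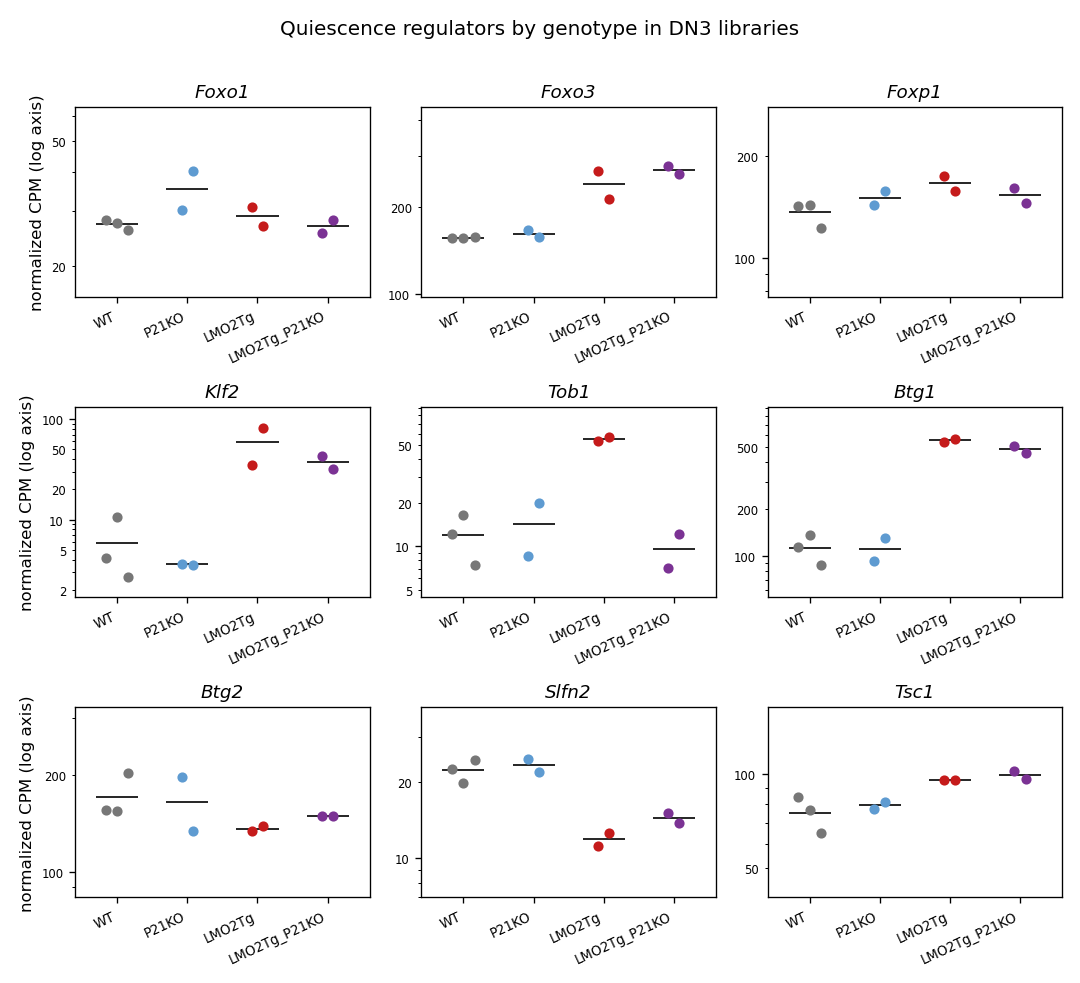
Normalized CPM of each regulator (log axes) in the 9 genotype libraries, with lines at the group means. Klf2 and Btg1 are high in all 4 libraries with the transgene, and Tob1 is high in the LMO2Tg libraries alone, at 53.1 and 57.1 CPM.

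Klf2 was 4.17, 10.7 and 2.72 CPM in WT and 35.1 and 82 CPM in LMO2Tg. The LMO2Tg libraries differed from each other by more than 2-fold, yet both were above every WT library. The log2 fold change was 3.33 ± 0.45 (10.1-fold, n = 2 and 3, adjusted p = 0.00025, edgeR).

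Btg1 was 114, 136 and 86.5 CPM in WT and 543 and 567 CPM in LMO2Tg, a tight pair far above WT (2.31 ± 0.17, 4.95-fold, adjusted p = 4.2e-06, edgeR). Tob1 was 12.1, 16.4 and 7.44 CPM in WT and 53.1 and 57.1 CPM in LMO2Tg (2.2 ± 0.34, 4.61-fold, adjusted p = 0.00059). Btg2, in contrast, was 156, 155 and 203 CPM in WT and 134 and 139 in LMO2Tg, and its difference of -0.33 did not pass (95% interval -0.67 to 0.02, adjusted p = 0.12, edgeR). The antiproliferative genes therefore did not move as one group.

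Slfn2 was 22.4, 19.8 and 24.4 CPM in WT and 11.2 and 12.5 CPM in LMO2Tg. The groups did not overlap, though the share of all genes for which this held is not given here. The level was 1.87-fold lower (-0.9 ± 0.13, adjusted p = 0.00046, edgeR).

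The FOX genes and Tsc1 changed less. Foxo3 was 156, 156 and 157 CPM in WT, the tightest of the 9 genes in that group, and 266 and 212 in LMO2Tg (0.61 ± 0.09, adjusted p = 6e-04, edgeR). Foxp1 was 143, 144 and 123 CPM in WT and 175 and 158 in LMO2Tg (0.29 ± 0.09, adjusted p = 0.032). Tsc1 was 84.7, 76.7 and 64.8 CPM in WT and 95.7 and 95.4 in LMO2Tg (0.34 ± 0.1, adjusted p = 0.023), opposite in sign to its difference between GFP_HI and GFP_LO. Without LMO2Tg library A neither Foxp1 (adjusted p = 0.2) nor Tsc1 (adjusted p = 0.09) passed, without LMO2Tg library B Tsc1 did not (adjusted p = 0.079), and without WT replicate 3 Foxp1 did not (adjusted p = 0.063, all by edgeR, with adjusted p from 0.018 to 0.2 for Foxp1 and 0.0093 to 0.09 for Tsc1 over 15 alternatives). Foxo1 was 28, 27.5 and 26.1 CPM in WT and 30.8 and 26.9 in LMO2Tg, with overlapping groups and a difference of 0.08 (95% interval -0.2 to 0.37).

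Targets of the FOXO factors and KLF2 differed with the transgene. Of 17 FOXO1 and KLF2 targets, 12 were higher and 2 lower in LMO2Tg than in WT, with a median log2 fold change of 0.9 beside -0.01 over all genes. S1pr1 (4.95), the integrin gene Itgb7 (3.85) and the pseudokinase gene Trib1 (3.65) led the higher ones. The 2 lower were the homing receptor gene Ccr7 (-1.02) and Il7r (-0.72). S1pr1 was low in WT, at 0.919, 0.636 and 0.302 CPM, and was 28.3 and 10.4 CPM in LMO2Tg. Upstream, the kinase gene Sgk1, itself a FOXO antagonist, was higher by 3.94 ± 0.37 among 3 higher and 1 lower of 12 genes, whose median was 0.09.

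Both tested relatives of the TOB and BTG genes were higher, Tob2 by 1.17 and Btg3 by 1.1. Of 9 KLF relatives 6 were higher and 2 lower, with Klf6 at 2.53, Klf11 at 2.29 and Klf10 at 1.26. Of 6 Schlafen relatives Slfn5 was higher (1.8) and Slfn9 (-0.83) and Slfn3 (-0.49) were lower. Of 20 TSC-mTORC1 genes 3 were higher and 1 lower, led by the mTOR inhibitor gene Deptor at 2.61, with Rragd at 0.96 and Nprl2 at -0.45. Of 13 CCR4-NOT genes Pabpc1 (0.34) and Cnot7 (0.22) were higher and Cnot2 (-0.21) lower. Of the 17 further quiescence genes 7 were higher and 2 lower, led by the mRNA decay genes Zfp36 (2.82) and Zfp36l2 (1.04) and the repressor gene Bach2 (1.21). Of 23 proliferation genes 3 were lower, Ccne2 (-0.6), Ccnb1 (-0.52) and Mcm2 (-0.33), and Mki67 differed by -0.09.

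The same contrast on the p21-deficient background, LMO2TgP21KO against P21KO, uses other libraries throughout. Klf2, Btg1, Foxo3 and Tsc1 were higher and Slfn2 lower, so 5 of 9 regulators passed, where 30.7% of all genes did. Klf2 was 3.63 and 3.54 CPM in P21KO and 42.6 and 31.9 in LMO2TgP21KO (3.37 ± 0.55, 10.3-fold, adjusted p = 0.001, edgeR). Btg1 was 92.9 and 129 CPM in P21KO and 511 and 461 in LMO2TgP21KO (2.13 ± 0.2, 4.39-fold, adjusted p = 2e-05, edgeR). With p21 intact they were 10.1-fold and 4.95-fold, and the differences between the backgrounds are the interactions given below.

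Foxo3 was 166 and 157 CPM against 277 and 260 (0.73 ± 0.1, adjusted p = 4e-04), and Slfn2 was 24.6 and 21.8 CPM against 15 and 13.7 (-0.7 ± 0.14, adjusted p = 0.0036, edgeR). Neither pair of groups overlapped. Tsc1, at 77.3 and 81.6 CPM against 102 and 96.7, was at the threshold (0.32 ± 0.11, adjusted p = 0.049, edgeR) and was lost in 9 of 15 alternatives, with an adjusted p from 0.0092 to 0.23. Foxo1 was 30.2 and 40.2 CPM in P21KO and 25.6 and 28.2 in LMO2TgP21KO, a difference of -0.39 ± 0.14 that did not pass (adjusted p = 0.056) but did without P21KO replicate 1 (adjusted p = 0.013, edgeR, range 0.013 to 0.44 over 15 alternatives). Foxp1 (0.02) and Btg2 (-0.14) had overlapping groups.

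On this background 19 of 23 proliferation genes were lower with the transgene, led by Ccnb1 (-0.75), Ccna2 (-0.7) and Bub1 (-0.64). Mki67 (-0.58 ± 0.16) was among the 19. None of the 23 passed for the interaction described below, where their median was -0.23. The FOXO1 and KLF2 targets counted 9 higher and 1 lower of 17, with Itgb7 at 4.4, Trib2 at 2.5 and Bcl6 at 1.48. Deptor was higher by 2.69 and Slfn5 by 2.3. Of 16 DN3 markers 10 were lower and 2 higher, with a median of -0.48, and their part in these results was not tested.

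**Figure D3:**
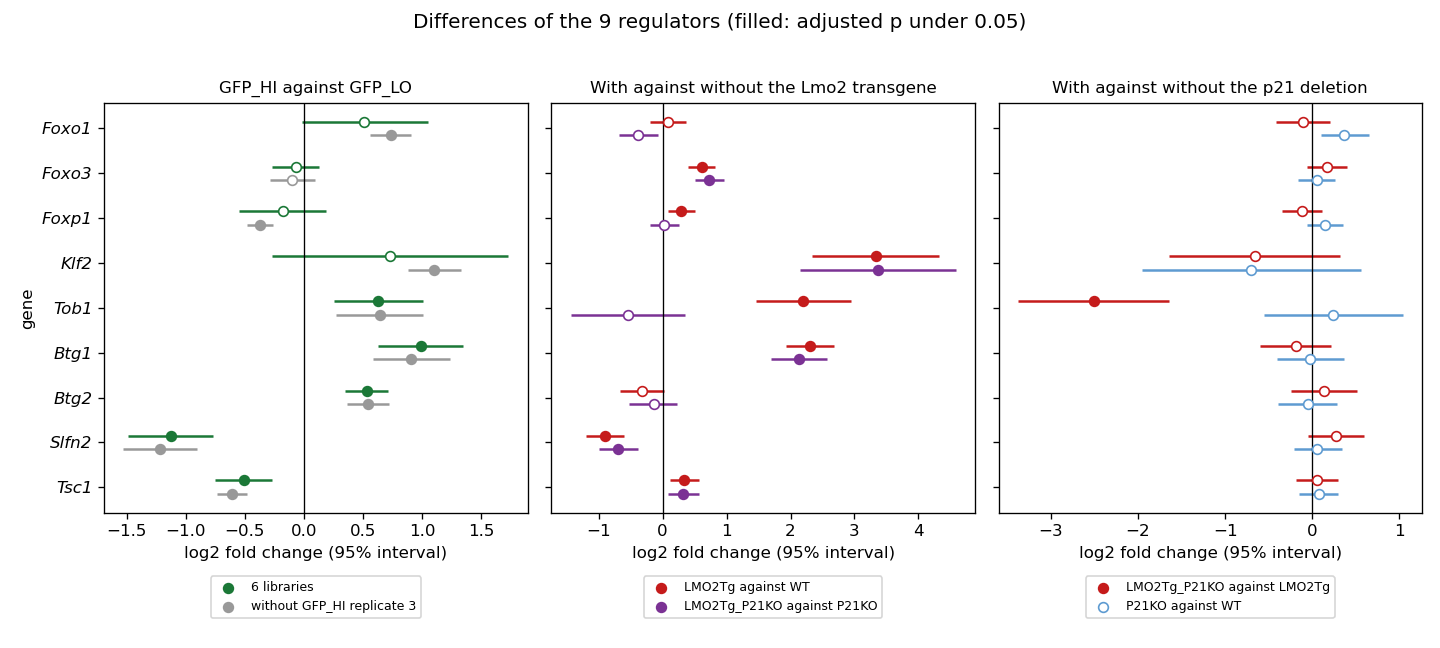
Log2 fold changes of the 9 regulators with 95% intervals (horizontal axes) for the 6 comparisons, filled where the adjusted p is under 0.05. Klf2 lies at 3.33 and 3.37 in the transgene comparisons, and Tob1 at -2.51 in LMO2Tg_P21KO against LMO2Tg with an interval that ends at -1.64.

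P21KO was compared with WT to ask what the loss of p21 does without the transgene. None of the 9 regulators passed in edgeR, DESeq2 or limma-voom, where 0.11% of all genes (13) passed in edgeR. By edgeR's unadjusted p under 0.05, which 3.3% of all genes met, 1 regulator was picked up: Foxo1, at 28, 27.5 and 26.1 CPM in WT and 30.2 and 40.2 in P21KO (0.37 ± 0.12, unadjusted p = 0.013, adjusted p = 0.98). Foxo1 and Foxp1 were the 2 regulators whose groups did not overlap, beside 19.5% of all genes. Both counts are uncertain, since exons of Gm20402 overlap those of Foxo1 and exons of Gm20696 overlap those of Foxp1. The widest 95% interval was that of Klf2, from -1.95 to 0.56, so a moderate change of it was not detectable with these libraries.

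LMO2TgP21KO was compared with LMO2Tg to ask what the loss of p21 does in transgenic cells. Tob1 was the 1 of 9 regulators that passed, where 6.94% of all genes did. It was 53.1 and 57.1 CPM in LMO2Tg and 7.13 and 12.1 CPM in LMO2TgP21KO. The LMO2TgP21KO libraries were below both LMO2Tg libraries and overlapped with WT (7.44 to 16.4 CPM) and P21KO (8.61 and 19.8 CPM). The log2 fold change was -2.51 ± 0.39 (5.69-fold lower, adjusted p = 0.0067, edgeR). Without LMO2TgP21KO replicate 1 it was -2.2 and did not pass (adjusted p = 0.078, range 5.1e-06 to 0.078 over 15 alternatives).

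The interaction, which asks whether the effect of p21 loss differs with and without the transgene, gave -2.75 ± 0.53 for Tob1 (adjusted p = 0.036, edgeR), and 1.38% of all genes passed. Tob1 was again the 1 regulator called. Its call was lost in 7 of 14 alternatives, all of which left out 1 library (LMO2Tg A, LMO2Tg B, LMO2TgP21KO 1, LMO2TgP21KO 2, P21KO 2, WT 1 or WT 3), with estimates from -3.23 to -2.04 over the 14 and an adjusted p from 0.00015 to 0.19. For the other regulators the interaction was between -0.47 (Foxo1) and 0.21 (Slfn2), with -0.17 for Btg1 (95% interval -0.73 to 0.39). That of Klf2 was 0.04 with a 95% interval of -1.52 to 1.59, too wide to show that p21 loss leaves it as it was.

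**Figure D4:**
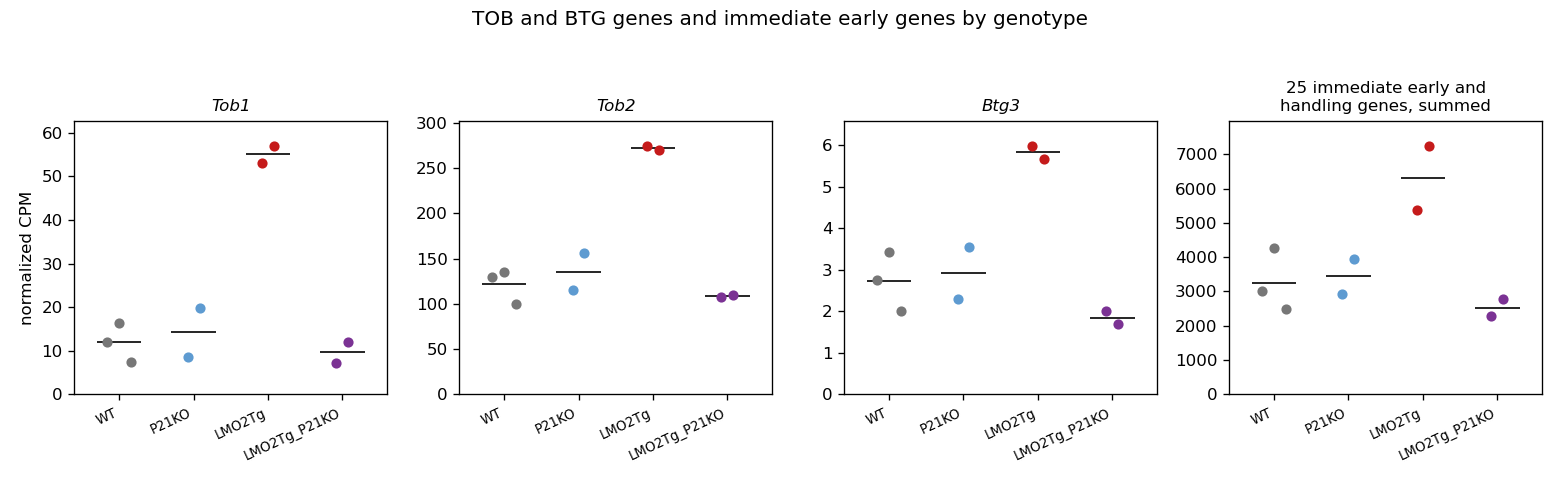
Normalized CPM (vertical axes from 0) of Tob1, Tob2 and Btg3 and the summed level of 25 immediate early and tissue handling genes in the 9 genotype libraries, with lines at the group means. In all 4 panels the LMO2Tg libraries are above the other 7, with Tob2 at 275 and 270 CPM against 99.6 to 156.

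Tob1 did not move alone. Its relative Tob2 was 275 and 270 CPM in LMO2Tg and 108 and 110 in LMO2TgP21KO (-1.32 ± 0.16, adjusted p = 0.0023, edgeR), and Btg3 was 5.99 and 5.67 CPM against 2 and 1.69 (-1.66 ± 0.31, adjusted p = 0.013, edgeR). Both were highest in the LMO2Tg libraries. Of 9 KLF relatives 5 were lower and 1 higher in LMO2TgP21KO than in LMO2Tg, with Klf11 at -2.32, Klf6 at -2.19 and Klf13 at -0.77, whereas Klf2 itself, at 35.1 and 82 CPM against 42.6 and 31.9, overlapped (-0.66, 95% interval -1.64 to 0.32). Sgk1 (-3.42) and Zfp36l1 (-0.85) were lower as well. Of 17 FOXO1 and KLF2 targets 4 were lower, with Trib1 at -3.32, S1pr1 at -2.3 and Gadd45a at -1.38, and 2 were higher.

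The immediate early and tissue handling genes, which respond within minutes to stimulation and to cell preparation, had the same order of groups. Of 25, 15 were lower in LMO2TgP21KO than in LMO2Tg, with a median log2 fold change of -2.05 beside 0.02 over all genes, and they summed to 2270 and 2790 CPM against 5370 and 7260. Nr4a1, a receptor-like gene induced by antigen receptor signals, was 392 and 339 CPM in LMO2Tg, 27.1 and 32 in LMO2TgP21KO, 19.3 and 64.8 in P21KO and 27, 34.5 and 21 in WT. Their part in the Tob1 result was not tested. Btg1, Foxo3, Slfn2 and Tsc1 did not follow this order, and differed between LMO2Tg and LMO2TgP21KO by -0.19, 0.17, 0.27 and 0.06 on the log2 scale, none of which passed.

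Levels were also set in order within the genotype table after division by exon length. In WT, Btg2 was highest at 62.5 ± 10.1 CPM per kilobase (SD, n = 3). Btg1 (21.2 ± 4.69) and Foxo3 (20.7 ± 0.102) followed within their spread of each other, then Slfn2 (13.3 ± 1.4) and Foxp1 (9.91 ± 0.852). Tsc1 (6.37 ± 0.847) and Tob1 (5.23 ± 1.96) did not differ beyond their spread, nor did Klf2 (3.17 ± 2.3) and Foxo1 (3.14 ± 0.112) at the end. In LMO2Tg the order was led by Btg1 (105 ± 3.2, n = 2), above Btg2 (49.8 ± 1.07). Klf2 (31.7 ± 17.9), Foxo3 (31.5 ± 5.02) and Tob1 (24.1 ± 1.23) came next with overlapping spreads, and Foxp1 (12.1), Tsc1 (8.07), Slfn2 (7.14) and Foxo1 (3.33) were last. Klf2 thus went from the 30.7th to the 86th percentile of 11814 genes ranked by level per kilobase, Tob1 from the 40.6th to the 80.5th, Btg1 from the 78.7th to the 97th, and Slfn2 from the 66th down to the 47.9th. In the GFP table Btg2 (83.3 ± 4.2, n = 3) and Btg1 (72.4 ± 7.38) led in GFP_HI cells. Foxo1 (5.73 ± 1.63) and Slfn2 (6.37) had the lowest means there and did not differ beyond the spread of Foxo1, which in GFP_HI replicates 1 and 2 was above Slfn2 (6.69 and 6.67 against 6.31 and 5.58). In GFP_LO cells Btg2 (57.7 ± 4.32) led Foxo3 (37 ± 3) and Btg1 (36.5 ± 6.88). Levels are not compared between the tables, which were made separately.

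Genes most like each regulator were sought by Pearson correlation of log2 CPM over the 9 genotype libraries, among 8762 genes with a mean of at least 10 CPM. With so few libraries in 4 groups, a high value says mainly that the groups stand in the same order. Foxo3 was closest to Cd93 (r = 0.996), Fli1 and Jak3, Btg1 to Ncf1 (r = 0.993), Nt5c2 and Hhex, and Tsc1 to Ciz1 (r = 0.993), Ubxn7 and Ddx19b. Tob1 was closest to Ankrd13c, Gla and Ube2d3 (each r = 0.983), Slfn2 to Rnpep (r = 0.981), Klf2 to Mapk8 (r = 0.976) and Foxp1 to Socs7 (r = 0.975). The nearest genes to Btg2 (Mterf4, r = 0.948) and Foxo1 (Npat, r = 0.91) were less alike. Over the 6 GFP libraries the pair of Tsc1 and Ciz1, both on chromosome 2, kept an r of 0.97, whereas Foxo3 and Cd93 had -0.02 and Btg1 and Hhex had -0.58.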

How the data were processed

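Poly-A RNA of sorted DN3 thymocytes was sequenced in 15 libraries with a usable column, 6 by GFP and 9 by genotype. Per the submitters' processing notes, STAR 2.4.2a, featureCounts, limma and mm10 were used, with no roles given. The authors deposited whole-number counts per protein-coding gene, not normalized, as a table for each experiment. The names of the tables point to different strand settings, so tests were kept within a table, and genes with overlapping or antisense partners are marked as uncertain. A total of 1 column of the genotype table, whose name could stand for a further LMO2TgP21KO library or another sample, matched no labelled sample and was not used here. P21KO replicate 3 has no column that was found. The LMO2Tg columns have names that GFP_LO samples also carry as descriptions, so they were used as libraries A and B of the LMO2Tg group only.

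Counts were tested with edgeR 4.0.16 (R 4.3.3): TMM scaling, filterByExpr (minimum count 10, minimum total 15), glmQLFit and glmQLFTest, two-sided, with Benjamini-Hochberg adjustment over all genes tested. GFP_HI was tested against GFP_LO in 6 libraries, and the genotypes in 1 fit of 9 libraries, whose contrasts share the WT, P21KO, LMO2Tg and LMO2TgP21KO libraries. A gene passed at an adjusted p under 0.05, with no fold threshold. Intervals are 95% intervals from the model's SE, and n is the number of libraries. Log2 CPM used a prior count of 2. Alternatives were RLE size factors, no filter, DESeq2 1.42.0, limma-voom (limma 3.58.1), scaling without chromosomes 2 and 15, a block for the replicate number, a fit of the compared groups alone, and leaving out each library. On simulated counts with 200 genes changed by 1 on the log2 scale, the test called 109 of them for GFP_HI against GFP_LO (11581 genes), 159 for LMO2Tg against WT and 145 for LMO2TgP21KO against LMO2Tg (11840 genes each), with 6, 14 and 6 other genes. A count of 3 corresponds to 0.0964 to 0.112 CPM in GFP and 0.178 to 0.216 CPM in genotype libraries.

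The 9 regulators, the gene lists and the tests were chosen with earlier results of these data known. Genes named beside them are Cdkn1a, Lmo2 and Mki67, up to 3 called genes per list and comparison with the largest absolute log2 fold change, and up to 3 genes with the most similar pattern. Cnot7, Cnot2, Cd74, Ccr7, Il7r, Rictor and Ccng2 stand in such lists, and genes given for their level were picked from these lists after their values were seen. Gene positions and exon lengths came from GENCODE M21 on GRCm38 (98.6% of identifiers matched). Promoters came from RefSeq. Figures were drawn with matplotlib 3.10.9 in Python.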

Additional observations from a re-analysis of the deposited data

Results flagged for a closer look

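The effect of p21 loss with the transgene (LMO2TgP21KO against LMO2Tg) and without it (P21KO against WT) differed by the interaction term of edgeR's fit for Tob1, where the difference of the log2 fold changes was -2.75 (-2.51 with the transgene and 0.24 without). The same term was past the threshold for 15 genes of the other lists, where 1.38% of all genes passed. These 15 hold Cdkn1a (-1.56), the deleted gene itself, and 8 of the 25 immediate early and tissue handling genes tested. Of those named by rule, the term was -1.47 for Tob2, -3.7 for Sgk1, -3.94 for Trib1 and -1.03 for Zfp36l1. For Ccr7, which was 1.77 and 1.37 CPM in LMO2Tg and 3.35 and 4.04 in LMO2TgP21KO, it was 2.14. Among immediate early genes it was -4.23 for Nr4a1, -7.98 for Nr4a3 and -6.6 for Fosl2. Nr4a3 was 145 and 39.6 CPM in LMO2Tg and 2.93 and 54.5 CPM in P21KO, and Fosl2 was 2.81 and 25.2 CPM in P21KO, so these values rest on libraries of 1 group that lie far apart. P21KO replicate 2 was the higher P21KO library for Tob1 as well (19.8 CPM against 8.61), and without it the Tob1 term was -2.04 (adjusted p = 0.19, range 0.00015 to 0.19 over 14 alternatives). Groups here hold 2 or 3 libraries, too few for a test of single outlying libraries.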

How the results depend on the processing

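No alternative reversed the direction of a regulator that passed, and 740 of the values recomputed for single regulators stayed on their side of the threshold, while 38 no longer passed and 5 newly passed. For GFP_HI against GFP_LO the number of regulators called was 5, with 3 under the replicate block and 1 to 8 when 1 library was left out: 8 without GFP_HI replicate 3, 3 without GFP_HI replicate 1 or 2, 4 without GFP_LO replicate 1 and 1 without GFP_LO replicate 2 or 3. The paper profiled both GFP populations in 3 independent cohorts. Neither the labels nor the methods say that equal replicate numbers mark one cohort. Deviations from the group means correlated at 0.07, -0.08 and 0.1 between same-numbered GFP_HI and GFP_LO libraries. With 3 libraries per group and GFP_HI replicate 3 apart from the rest, these values cannot decide whether the libraries were paired. Under the block Btg1, Btg2 and Slfn2 passed and Tob1 and Tsc1 did not (adjusted p = 0.088 each). The block over P21KO and WT left the number at 0. Leaving out 1 library gave 0 to 1 regulators for LMO2TgP21KO against LMO2Tg (0 without LMO2TgP21KO replicate 1) and 0 to 1 for the interaction. For LMO2Tg against WT it gave 5 to 7, and for LMO2TgP21KO against P21KO 4 to 5. Without LMO2Tg A or B and in similar cases a group is left with 1 library, which was assumed to vary like the others. Counts over all genes moved more: for GFP_HI against GFP_LO 1721 genes became 2913 with DESeq2 and 496 with the block (percent higher 36.1, 44.9 and 25.8), and 273 to 4848 with 1 library left out. For the interaction 163 became 520 without a filter, 459 with DESeq2 and 0 to 449 with 1 library left out. For P21KO against WT 13 became 21 without a filter and 20 with DESeq2, and for LMO2TgP21KO against LMO2Tg 822 became 404 with only the groups compared and 60 (without LMO2TgP21KO replicate 1) to 1128 (without WT replicate 3) with 1 library left out. Leaving out 1 library gave 8 to 18 for P21KO against WT, 2815 to 4248 for LMO2Tg against WT (4329 with all) and 1914 to 4251 for LMO2TgP21KO against P21KO (3639 with all). The causes were not tested. The effect of depth was not tested. The lowest value of a regulator, Klf2 in WT, was 2.72 CPM where 3 counts are 0.185 CPM.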
